A study of Homo sapiens with 6 samples.

Results

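Immediate early transcription factors are the genes that cells switch on first after a stimulus, without new protein synthesis. Here 10 were chosen by symbol: the AP-1 subunits FOS, FOSB, FOSL2, JUN, JUNB and JUND, the related stress factor ATF3, the zinc-finger factor EGR1, and the orphan nuclear receptors NR4A1 and NR4A3. Of the 10, 9 had values, among 16625 genes tested, and FOSB was not analysed here. The neurons are human, taken at day 10 to 14 per the design text, and their polyA RNA was sequenced. The tested libraries are 3 labelled PEDS1 knockout and the comparison libraries are 3 labelled control. Both groups derive from the induced pluripotent stem cell line UCSFi001-A. All the cells carry doxycycline-inducible NGN2, a neurogenic transcription factor, at the AAVS1 locus. All were matured with doxycycline, laminin, and the neurotrophins BDNF and NT-3, so neither group was free of growth factor. PEDS1 is the enzyme that completes plasmalogens, a class of ether lipids, by introducing their vinyl ether bond, and the series title links ether lipids to protection from ferroptosis. The labels give 1 source name per genotype, so clones cannot be told apart, and separate cultures are not stated for the replicates. The p-values therefore rest on library-to-library spread alone, and that spread may be technical.

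In neurons, calcium entry and neurotrophin receptors activate the ERK, CaM kinase and PKA pathways. These pathways phosphorylate CREB and the partners of serum response factor, which already sit on immediate early promoters. FOS and JUN family proteins pair through a leucine zipper and bind AP-1 sites. EGR1 and the NR4A receptors bind other motifs, and together these factors switch on later genes such as BDNF. ATF3 and JUN are also known for their induction by axon injury and by the integrated stress response.

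The libraries held 17996634 to 28773664 recovered reads in the knockout group and 25275584 to 44573013 in controls. PEDS1 had 836, 765 and 1349 normalized counts in replicates 1, 2 and 3 of the libraries labelled knockout, against 1360.0, 1347 and 1399 in controls. The library labelled PEDS1 knockout replicate 3 thus lay within the control range for the targeted gene. The edited part of the gene is not given in the labels. The results that follow use the groups as labelled. All 12 neuronal markers checked had values, of which ELAVL4 and NEFL rose and TUBB3 and RBFOX3 fell, and their summed normalized counts were 442875 to 455883 in the knockout group and 400065 to 418577 in controls. Of 7 pluripotency markers, 2 had values, LIN28A among them, and their sum was 660.0 to 856 in the knockout group and 355 to 388 in controls, while POU5F1 and NANOG had none. For 5 of 6 neural progenitor markers the sums were 29049 to 32606 in the knockout group and 27129 to 29005 in controls. Among these, PAX6 rose and SOX2 fell (log2 difference 0.89 and -0.47, limma adjusted p = 0.00912 and 0.0118). Sums over the 4 proliferation markers with values were 353 to 409 in the knockout group and 259 to 298 in controls. Those over 3 of 6 astroglial markers were 69.2 to 80.4 in the knockout group and 63.2 to 76.5 in controls. For the 3 of 6 mesenchymal markers with values they were 51.0 to 121 in the knockout group and 49.998 to 61.9 in controls. The pluripotency marker LIN28A, the proliferation marker TOP2A and the mesenchymal marker COL1A2 rose, by log2 differences of 1.08, 1.04 and 1.08. Their limma adjusted p-values were 0.000321, 0.00749 and 0.0156. None of 5 microglial and blood markers had values. The part of these cell types in the results below was not tested.

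Promoter sequences of these genes were searched for motifs of the factors named above. The cyclic AMP response element (CRE), bound by CREB, has the core TGACG. The CArG box is bound by serum response factor. TGACATCA is a variant of the CRE found in the JUN promoter and known to bind JUN and ATF2. RefSeq promoter windows, from 250 bases before to 50 after each listed start, were available for all 10 genes. There were 12 windows in all, because ATF3 and NR4A1 have 2 listed starts each. Which starts these neurons use was not tested, and promoters at other starts of a gene were not searched. NR4A3, JUND, ATF3 and NR4A1 passed the test described below. The NR4A1 windows held none of the motifs and are not shown. Shown are the most upstream windows of NR4A3, JUND and ATF3, and those of JUN, FOS and EGR1, the most studied of the group. Each is given 5′ to 3′ on the strand of the gene, with matches to TGACG or its complement CGTCA, TGACATCA, the CArG box, TGACTCA and TGAGTCA in capitals.
NR4A3 (GRCh38.p14, chr9:99821635-99821934, plus strand): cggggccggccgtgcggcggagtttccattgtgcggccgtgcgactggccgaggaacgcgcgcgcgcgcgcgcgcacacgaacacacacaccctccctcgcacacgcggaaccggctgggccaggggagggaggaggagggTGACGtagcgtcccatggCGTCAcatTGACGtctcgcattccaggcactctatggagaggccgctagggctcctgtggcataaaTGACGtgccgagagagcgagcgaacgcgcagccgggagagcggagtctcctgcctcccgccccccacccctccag
JUND (GRCh38.p14, chr19:18281573-18281872, minus strand): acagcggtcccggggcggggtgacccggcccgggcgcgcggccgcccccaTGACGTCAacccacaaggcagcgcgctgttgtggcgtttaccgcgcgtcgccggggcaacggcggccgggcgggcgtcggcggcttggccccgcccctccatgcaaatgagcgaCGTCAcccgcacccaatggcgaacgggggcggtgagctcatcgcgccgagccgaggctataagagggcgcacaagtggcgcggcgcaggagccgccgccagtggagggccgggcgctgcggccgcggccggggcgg
ATF3 (GRCh38.p14, chr1:212565157-212565456, plus strand): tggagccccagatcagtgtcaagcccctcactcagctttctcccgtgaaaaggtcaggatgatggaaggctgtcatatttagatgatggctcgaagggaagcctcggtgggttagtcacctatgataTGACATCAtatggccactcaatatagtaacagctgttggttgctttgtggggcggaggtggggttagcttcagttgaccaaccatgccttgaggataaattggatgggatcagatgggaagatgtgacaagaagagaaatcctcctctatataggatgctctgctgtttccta
JUN (GRCh38.p14, chr1:58783998-58784297, minus strand): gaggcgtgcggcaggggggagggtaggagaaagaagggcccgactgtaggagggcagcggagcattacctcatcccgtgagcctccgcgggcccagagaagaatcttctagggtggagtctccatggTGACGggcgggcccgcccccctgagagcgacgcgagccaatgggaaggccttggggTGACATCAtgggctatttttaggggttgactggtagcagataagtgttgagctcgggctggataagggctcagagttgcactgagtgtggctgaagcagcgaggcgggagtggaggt
FOS (GRCh38.p14, chr14:75278578-75278877, plus strand): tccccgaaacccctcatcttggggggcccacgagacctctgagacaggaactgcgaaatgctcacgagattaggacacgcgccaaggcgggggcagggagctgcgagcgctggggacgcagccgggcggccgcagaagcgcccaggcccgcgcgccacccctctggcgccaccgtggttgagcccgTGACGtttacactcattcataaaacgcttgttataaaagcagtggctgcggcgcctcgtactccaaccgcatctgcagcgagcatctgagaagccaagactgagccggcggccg
EGR1 (GRCh38.p14, chr5:138465229-138465528, plus strand): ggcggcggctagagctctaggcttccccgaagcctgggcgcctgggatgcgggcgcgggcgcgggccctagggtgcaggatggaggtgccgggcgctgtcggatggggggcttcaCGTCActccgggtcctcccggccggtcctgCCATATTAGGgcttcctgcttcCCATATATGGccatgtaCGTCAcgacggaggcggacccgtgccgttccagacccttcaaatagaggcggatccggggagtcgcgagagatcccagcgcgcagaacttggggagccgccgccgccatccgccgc

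The core TGACG or CGTCA occurred in 8 of the 12 windows, against 24.6% of 35116 promoter windows. That background was not matched for GC content. The windows with the core hold 62% to 77% G and C, and those without it 46.3% to 69.7%. The NR4A3 window held 4 copies, a number reached by 0.313% of all windows. The JUND window held 3, of which 2 overlap in the full palindrome TGACGTCA, which 1.85% of windows contain. FOS had 1 core, 64 bases before the start, and JUN had 1 core and TGACATCA, a motif also present in the ATF3 window and in 2.61% of all windows. EGR1 held 2 cores and 2 CArG boxes, and 1.29% of windows hold at least 1 CArG box. Neither NR4A1 window nor either ATF3 window held the core. This covers the listed windows only, and promoters of ATF3 and NR4A1 outside them may hold it. All these motif counts are matches of letters and are not evidence of binding in these neurons.

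Of the 9 genes, 4 passed the test (limma, Benjamini-Hochberg adjusted p under 0.05), against 13.6% of all genes. NR4A3 rose, and JUND, ATF3 and NR4A1 fell. Over all genes 5.95% rose and 7.69% fell. The median log2 difference, knockout minus control, was -0.29 over the 9 genes and -0.0064 over all genes tested. The groups did not overlap in 6 of the 9 genes, against 37.1% of all genes. In 5 of them every knockout value was below every control value (18.2% of all genes), and in NR4A3 every one was above (19% of all genes). Leaving out knockout replicate 1, 2 or 3 left 3, 3 and 4 of the 9 genes called, where 11%, 9.08% and 21.5% of all genes passed. Leaving out control replicate 1, 2 or 3 left 2, 1 and 3 called, where 3.75%, 3.5% and 11.5% passed. The called genes moved by 24.3% to 38.1% of the control mean. In bulk RNA, a lower value can come from fewer cells that express the gene or from less RNA per cell, and these cannot be told apart.

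**Figure D1:**
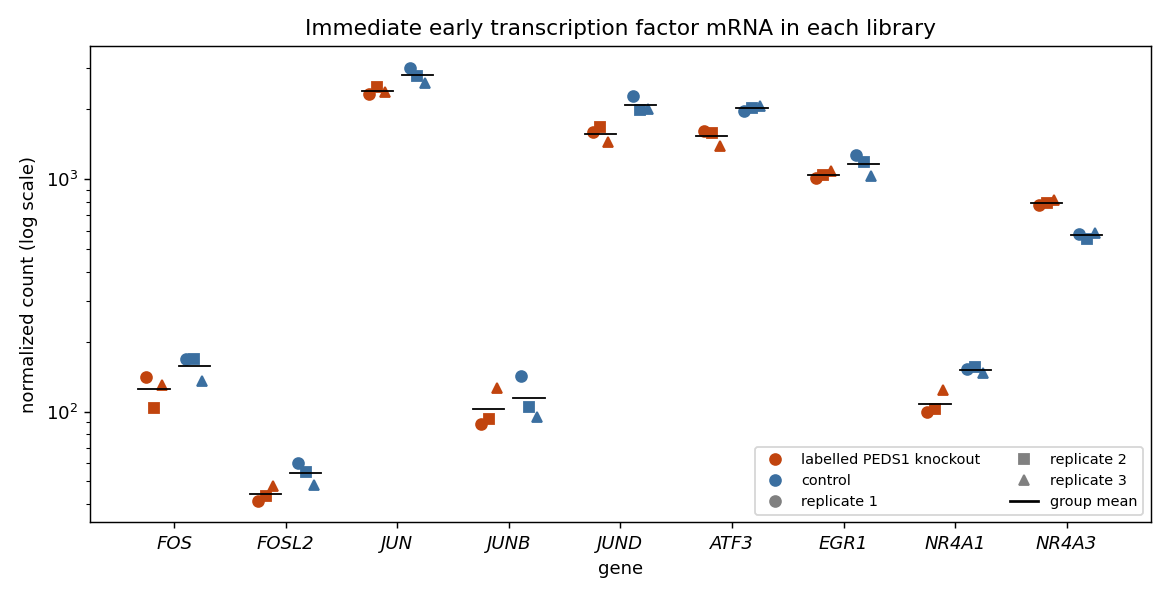
Normalized counts, on a log axis, of the 9 genes in each library, with libraries labelled PEDS1 knockout in orange on the left and controls in blue on the right of each gene. Symbols mark replicate numbers and lines mark group means. NR4A3 is the gene with all knockout values above all control values, and FOSL2, JUN, JUND, ATF3 and NR4A1 have all knockout values below all control values.

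NR4A3 (ENSG00000119508, chr9:99821855-99866891, plus strand; positions are of the annotated gene in GRCh38, GENCODE 29), an orphan nuclear receptor and cAMP-responsive early gene, had 774, 789.8 and 813 normalized counts in the libraries labelled knockout, against 580.4, 551 and 589 in controls. Every knockout value lay above every control value, and the library labelled replicate 3 was the highest. The means were 792 ± 20.004 in the knockout group and 573 ± 19.7 in controls (SD, n = 3 each). The log2 difference was 0.47 ± 0.08 (SE; limma adjusted p = 0.00499). The exact two-sided permutation test over libraries gave p = 0.1, the smallest that 3 against 3 allow. NR4A3 was also the steadiest of the 9 within groups: its residual SD of 0.0437 on the log2 scale lay at percentile 4.16 of all genes. In all 17 alternatives, including each library left out, NR4A3 was higher with an adjusted p under 0.05, and the log2 difference ranged from 0.41 to 0.50.

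NR4A1 (ENSG00000123358, chr12:52022832-52059507, plus strand), its paralog and a classical early gene of neurons and lymphocytes, went the other way. It had 99.1, 102 and 124 normalized counts in the libraries labelled knockout, against 152, 155 and 147 in controls. All knockout values were below all control values, with the library labelled replicate 3 nearest to them. Its log2 difference was -0.49 ± 0.13 (SE; limma adjusted p = 0.0317). The call rests on 66 to 109 reads per knockout library and 140 to 238 per control library. It was lost without any of the 5 libraries other than the one labelled PEDS1 knockout replicate 3, with limma adjusted p of 0.0602 to 0.139, and dropping that library gave 0.00969. NR4A2, the remaining member of the receptor family, had 53.9, 54.1 and 59.0 normalized counts in knockout libraries and 56.6, 57.5 and 53.1 in controls, which overlap (limma adjusted p = 0.992).

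The ratio of NR4A3 to NR4A1 reads per kilobase is computed within a library, so library scaling cannot change it, though its size depends on the transcript lengths used. It was 4.61, 4.57 and 3.88 in the libraries labelled knockout, against 2.25, 2.10 and 2.37 in controls. The groups did not overlap (exact permutation p = 0.1). With lengths of merged exons, an alternative chosen after seeing the data, the ratio averaged 8.52 in knockout libraries and 4.38 in controls. A change of length scales such a ratio alike in every library, so it could not alter the overlap. Between JUN family members the same kind of ratio moved less. JUND over JUN was 1.30, 1.27 and 1.15 in knockout libraries and 1.43, 1.35 and 1.46 in controls, also without overlap (exact permutation p = 0.1). JUND transcripts hold 69.7% G and C and JUN transcripts 56.7%, and no ratio here was adjusted for GC content. In the fit that adjusts each library for GC and length, the log2 difference was 0.059 for JUND and -0.13 for JUN. JUND thus did not fall relative to JUN in that fit, and the ratio itself was not tested there. ATF3 over JUN was 1.77, 1.62 and 1.49 in knockout libraries and 1.66, 1.86 and 2.03 in controls, with overlap (exact permutation p = 0.2). With merged exons ATF3 over JUN averaged 0.557 in knockout libraries and 0.634 in controls.

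**Figure D2:**
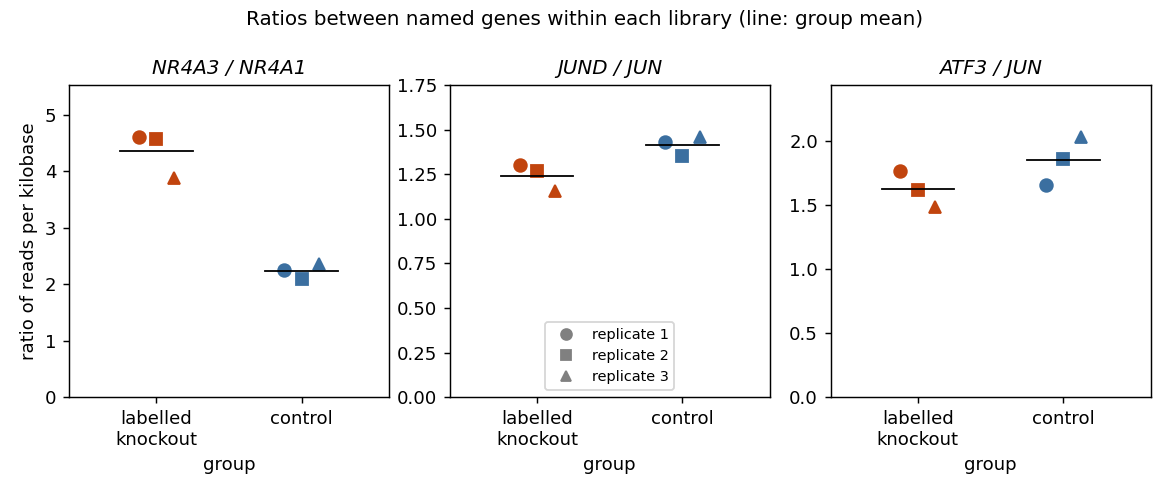
Ratios of reads per kilobase of transcript between pairs of the named genes within each library, for libraries labelled PEDS1 knockout on the left and controls on the right of each panel. Lines mark group means. The NR4A3 to NR4A1 ratio averaged 4.35 in the knockout group and 2.24 in controls, while the ATF3 to JUN ratios of the groups overlap.

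ATF3 (ENSG00000162772, chr1:212565334-212620777, plus strand), a stress-induced member of the ATF and AP-1 superfamily, was abundant in both groups. It had 1612, 1584 and 1384 normalized counts in the libraries labelled knockout, against 1959, 2026 and 2065 in controls. All knockout values were below all control values, and the library labelled replicate 3 was the lowest. On the log2 scale ATF3 differed by -0.40 ± 0.08 (SE; limma adjusted p = 0.0114), a mean 24.3% below controls. The authors' deposited table gave -0.40 with an adjusted p of 0.000382. The call was lost without control replicate 2 (limma adjusted p = 0.0728), and the adjusted p over all alternatives ran from 0.000382 to 0.0728. After GC content and transcript length were regressed out, ATF3 still fell (-0.36, limma adjusted p = 0.00123).

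The JUN family supplies the obligate partner of FOS proteins. JUND (ENSG00000130522, chr19:18279760-18281622, minus strand), its growth-restraining and constitutively expressed member, had 1594, 1668 and 1444 normalized counts in the libraries labelled knockout, against 2272, 1978 and 1993 in controls. The groups did not overlap. On the log2 scale JUND differed by -0.41 ± 0.09 (SE; limma adjusted p = 0.0149), and the authors' deposited table gave -0.41 with an adjusted p of 0.000958. The call was lost without control replicate 1 (limma adjusted p = 0.0858) or control replicate 2 (0.0571). JUND transcripts are 69.7% G and C, higher than those of 99.7% of genes. The 52 other genes within 1 percentage point of that GC content had a median log2 difference of -0.29, and 32.7% of them were lower than JUND. After both trends were removed, the log2 difference of JUND was 0.059 (limma adjusted p = 0.779).

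JUN (ENSG00000177606, chr1:58780788-58784327, minus strand), the founding member of the family and a marker of axon injury, was the most counted of the 9. It had 2330.2, 2498 and 2378 normalized counts in the libraries labelled knockout, against 3018, 2783 and 2597 in controls, and every knockout value was below every control value. The log2 difference of -0.22 ± 0.08 (SE) missed the threshold (limma adjusted p = 0.0847), with a 95% interval of -0.39 to -0.05. JUNB (ENSG00000171223, chr19:12791496-12793315, plus strand), often an antagonist of JUN, had 88.5, 92.7 and 126 normalized counts in the libraries labelled knockout and 143, 104 and 95.1 in controls. Its groups overlapped widely, and its replicate spread was the largest of the 9 (log2 difference -0.15, 95% interval -0.57 to 0.27, limma adjusted p = 0.615). JUNB lies within the annotated span of HOOK2 on the opposite strand. The strand setting of the authors' read counting is not stated, so reads of the pair may be shared.

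FOS (ENSG00000170345, chr14:75278774-75282230, plus strand), the partner that makes AP-1 inducible, had 140.5, 104 and 130.4 normalized counts in the libraries labelled knockout, against 168, 168 and 135 in controls. Those values rest on 146, 67 and 115 reads in knockout libraries and 154 to 219 in controls. Knockout replicate 1 lay above control replicate 3, so the groups overlapped. The log2 difference was -0.33 ± 0.15 (SE), with a 95% interval of -0.66 to -0.0018 before adjustment and a limma adjusted p of 0.156. FOSL2 (ENSG00000075426, chr2:28392448-28417312, plus strand), a less inducible FOS relative, had 41.4, 43.3 and 47.6 normalized counts in knockout libraries and 59.9, 54.9 and 48.1 in controls. Its groups did not overlap, by the narrow gap between 47.6 and 48.1, and the difference of -0.29 on the log2 scale missed the threshold (95% interval -0.66 to 0.08, limma adjusted p = 0.251).

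EGR1 (ENSG00000120738, chr5:138465490-138469315, plus strand), a target of ERK signalling and serum response factor, had 1008, 1037 and 1079.9 normalized counts in the libraries labelled knockout, against 1269.6, 1189 and 1036 in controls. Knockout replicates 2 and 3 lay above the lowest control, so the groups overlapped. Its log2 difference was -0.16 ± 0.09 (SE; 95% interval -0.36 to 0.04, limma adjusted p = 0.256). For FOS, FOSL2, JUN, JUNB and EGR1 the adjusted p stayed above the threshold in every alternative that gave a value, with 0.0582 for JUN under quantile scaling as the lowest. Missing the threshold does not show that these genes are alike in the groups, and the intervals for FOS and FOSL2 reach to -0.66 on the log2 scale.

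**Figure D3:**
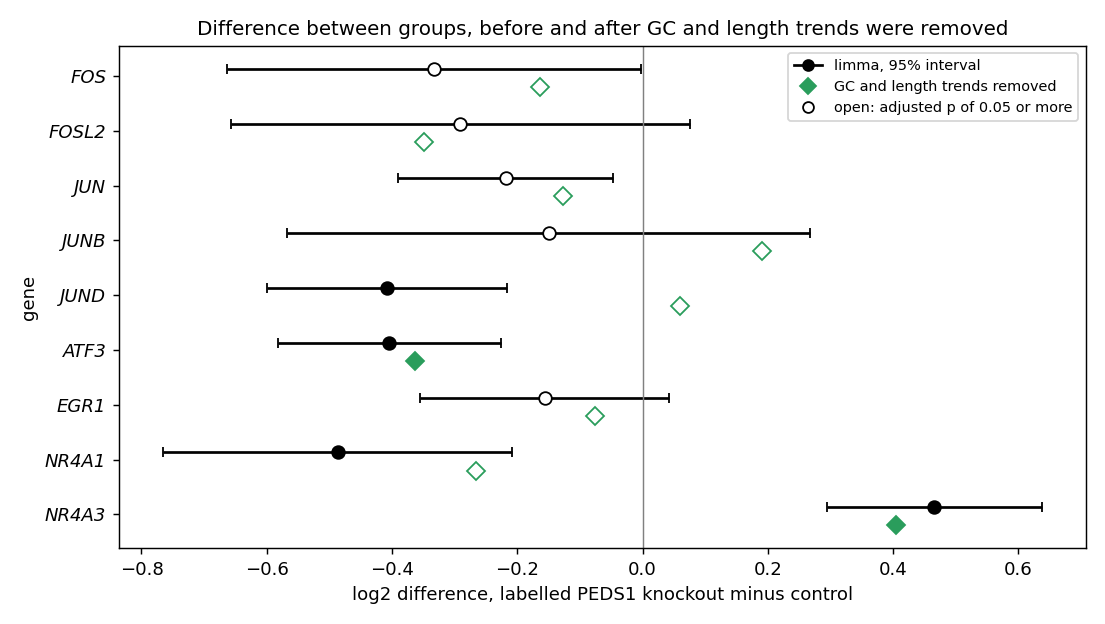
Log2 differences, labelled PEDS1 knockout minus control, of the 9 genes, as limma estimates with 95% intervals (circles) and after removal of trends on GC content and transcript length (diamonds). Filled symbols passed an adjusted p under 0.05. NR4A3 at 0.47 and ATF3 at -0.40 are filled in both, while JUND at -0.41 changes to 0.059.

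Differences over all genes fell with GC content, in which the 9 genes differ. When all genes were split into 5 equal groups by GC content, the median log2 difference was 0.13 in the lowest group and -0.24 in the highest, from 58.1% upward. NR4A1 (60.8%), JUNB (64.9%) and JUND (69.7%) are in the highest group, while ATF3 (50.6%) and NR4A3 (49.5%) are near the middle. Among 1090 genes within 1 percentage point of NR4A3 in GC content the median was 0.03, and 94.0% of them were below NR4A3. Among 1040 genes near ATF3 the median was 0.01, and 9.13% were below ATF3. For NR4A1 the median of 843 such genes was -0.20, with 16.7% below it. Once both trends were removed, the NR4A1 difference was -0.27 and did not pass (limma adjusted p = 0.138). In that setting 2 of the 9 genes passed, where 18% of all genes did: NR4A3 rose (9.86% of all genes) and ATF3 fell (8.13%). Whether GC content, genotype or another property of the libraries produced the trend was not tested.

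**Figure D4:**
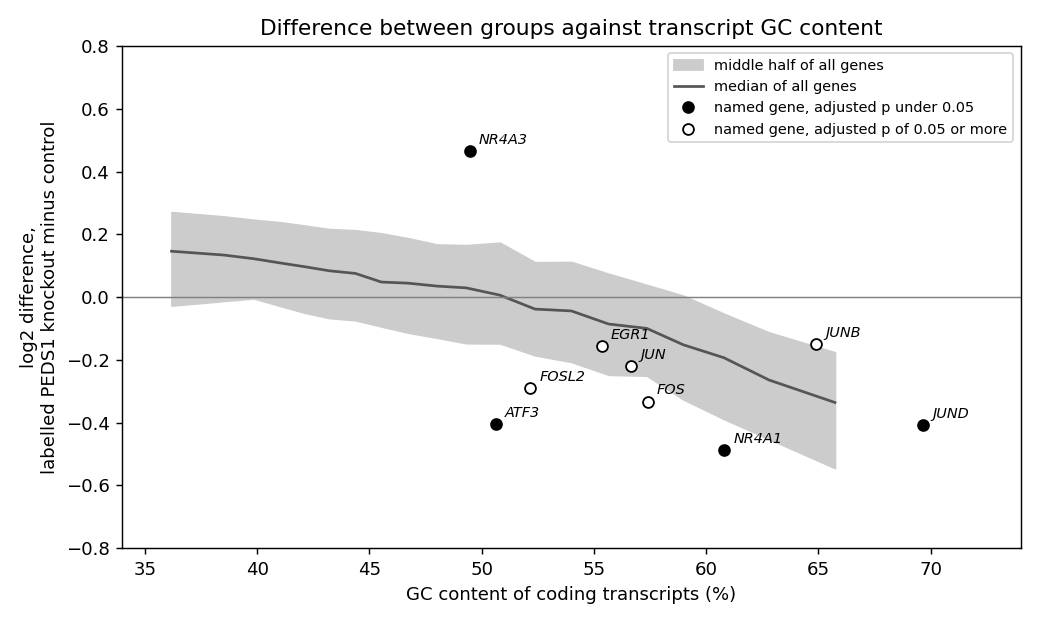
Log2 difference, labelled PEDS1 knockout minus control, against the GC content of coding transcripts in percent. The grey line and band give the median and the interquartile range of all genes in 20 bins of GC content, and points are the 9 named genes, filled where the adjusted p was under 0.05. NR4A3 lies above the band, and ATF3, NR4A1, FOS and FOSL2 lie below it. JUNB lies at its upper edge, and JUN and EGR1 lie within it. JUND lies beyond the end of the line, which stops at the median GC content of the last bin.

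Levels between genes were compared in RPKM, reads per kilobase of transcript scaled to library size. ATF3 led with 39.3 ± 3.86 in knockout libraries and 52.9 ± 1.46 in controls (SD, n = 3 each). JUND followed with 30.1 ± 2.64 in knockout libraries and 40.7 ± 3.15 in controls, and JUN with 24.2 ± 1.01 in knockout libraries and 28.8 ± 2.16 in controls. EGR1 had 11.8 ± 0.216 in knockout libraries and 13.5 ± 1.38 in controls. NR4A3, the gene of the 9 whose level was higher in the knockout group, had 6.44 ± 0.0625 there and 4.76 ± 0.146 in controls. Below it, FOS had 3.32 ± 0.509 in knockout libraries and 4.26 ± 0.521 in controls, and JUNB had 2.00 ± 0.363 in knockout libraries and 2.28 ± 0.5004 in controls. NR4A1 had 1.49 ± 0.157 in knockout libraries and 2.13 ± 0.0635 in controls. FOSL2 was the lowest, with 0.251 ± 0.0139 in knockout libraries and 0.316 ± 0.0342 in controls. The order was the same in both groups. Neighbours JUNB and NR4A1 overlapped in controls, where JUNB ranged from 1.90 to 2.85 and NR4A1 from 2.06 to 2.19. With lengths of merged exons, JUND and JUN stood above ATF3, so the order of the top genes depends on which transcripts are used.

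JUN family mRNA exceeded that of FOS and FOSL2 together. The ratio was 14.0, 19.6 and 14.5 in the libraries labelled knockout, against 16.0, 14.2 and 17.1 in controls (exact two-sided permutation p = 0.9). With merged exons it averaged 35.8 in knockout libraries and 35.3 in controls. Within the summed mRNA of FOS, FOSL2, the JUN family and ATF3, JUN took 24.5% ± 1.22 in knockout libraries and 22.3% ± 0.923 in controls (SD, n = 3 each), with no overlap (exact permutation p = 0.1). JUND took 30.3% ± 0.759 in knockout libraries and 31.4% ± 1.38 in controls, and ATF3 39.6% ± 1.44 in knockout libraries and 41.0% ± 2.54 in controls (exact permutation p = 0.3 and 0.4). These shares also depend on length: with merged exons JUN took 33.96% in knockout libraries and 31.3% in controls, and JUND led with 42.1% in knockout libraries and 44.2% in controls (exact permutation p = 0.1 for each). ATF3 then took 18.9% in knockout libraries and 19.8% in controls. The sum over the 9 genes was 119 ± 6.27 RPKM in knockout libraries and 150 ± 5.85 in controls, without overlap (exact permutation p = 0.1). Most of this sum comes from ATF3, JUND and JUN. Neither the sum nor the ratios and shares above were adjusted for GC content.

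**Figure D5:**
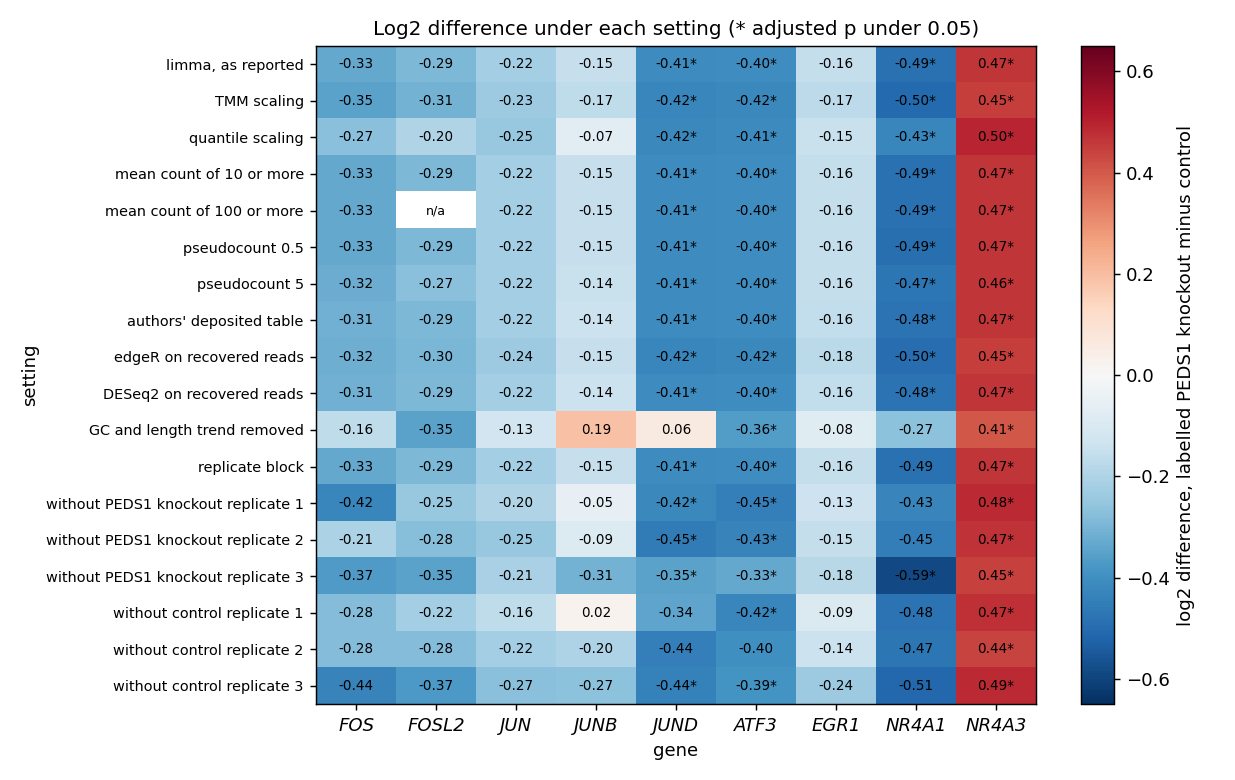
Log2 difference, labelled PEDS1 knockout minus control, of each of the 9 genes (columns) in the reported fit and under each of 17 alternatives (rows). Colour gives the sign and size, and a star marks an adjusted p under 0.05. The NR4A3 column is starred throughout, ATF3 lacks a star only without control replicate 2, and JUNB and JUND are positive with GC and length trends removed.

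Other genes of the same response were taken from lists, whose counts stand beside 13.6% of all genes called, 5.95% that rose and 7.69% that fell. None of these counts was tested against the rest of the genes. Of 20 further early transcription factors, 12 had values: 0 rose, 3 fell and 9 did not pass, with a median log2 difference of -0.11. CEBPB, a factor of the stress and inflammatory response, had 307, 299.8 and 278 normalized counts in knockout libraries, against 528, 509 and 506 in controls (log2 difference -0.80, limma adjusted p = 0.00049), and after trend removal the difference was -0.43. BHLHE40, a clock-linked repressor, fell by 0.78 and MAFF, a small MAF protein, fell by 0.49 on the log2 scale. After trend removal MAFF did not pass (-0.31, limma adjusted p = 0.0512). MYC had 1474.6 to 1643 normalized counts in knockout libraries and 1391 to 1491 in controls and did not pass (limma adjusted p = 0.274), but it rose after trend removal (0.26, limma adjusted p = 0.00857). EGR2, EGR3, EGR4, NPAS4 and FOSL1 were not analysed here.

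Among 15 dimer partners and competitors of AP-1, 12 had values, of which 3 fell (median -0.04). DDIT3, which encodes the stress factor CHOP and can pair with ATF3, had 2395, 2182 and 1762 normalized counts in knockout libraries, against 5342, 5729 and 5795 in controls. The log2 difference was -1.42 ± 0.11 (SE; limma adjusted p = 5.24e-05). JDP2, a repressor that binds JUN proteins, fell by 0.55 and MAFK, another small MAF protein, by 0.72 on the log2 scale, with a difference of -0.46 for MAFK after trend removal. ATF4, an activator of ATF3 and DDIT3 in the integrated stress response, had 12651 to 16625 normalized counts in knockout libraries and 15370 to 15832 in controls and did not pass (limma adjusted p = 0.648).

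Of 35 early response effectors, 30 had values: 1 rose, 5 fell and 24 did not pass (13.6% of all genes passed), with a median log2 difference of 0.01. PPP1R15A, which returns translation to normal after stress, had 1763, 1801 and 1580.1 normalized counts in knockout libraries, against 2594, 2638 and 2565 in controls (log2 difference -0.60, limma adjusted p = 0.00108). PER1, a clock gene with a CRE-driven early response, fell by 0.68, and GADD45A, a growth arrest gene, by 0.38 on the log2 scale. ARC, the synaptic early gene, had 36.6, 38.6 and 38.6 normalized counts in knockout libraries and 68.6, 69.9 and 53.7 in controls. ARC fell by 0.73 on the log2 scale (limma adjusted p = 0.0210), which did not pass after removal of the GC and length trends (limma adjusted p = 0.124). When knockout replicate 3 was left out, 5 effectors rose and 5 fell, where 21.5% of all genes passed.

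Of 25 later activity-regulated genes of neurons, 16 had values, of which 3 rose and 1 fell (median -0.08), where 5.95% of all genes rose and 7.69% fell. TAC1, the substance P precursor, fell by 1.21 on the log2 scale. The neuropeptide genes SST and PENK rose by a log2 difference of 0.91 and 1.44, and PCSK1, a prohormone convertase, by 0.43. PENK rests on low values, 20.4 to 24.7 normalized counts in knockout libraries and 5.44 to 9.73 in controls. BDNF had 161 to 189 normalized counts in knockout libraries and 204 to 244 in controls and missed the threshold (limma adjusted p = 0.0859). It fell without the library labelled PEDS1 knockout replicate 3 (-0.38, limma adjusted p = 0.0469) and after trend removal (-0.44, limma adjusted p = 0.0103). Without that library 4 of these genes rose and 3 fell, where 21.5% of all genes passed.

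All 37 upstream kinases and activators had values, of which 3 rose and 2 fell (median 0.04), a share near the 13.6% of all genes called. CRTC2, a CREB coactivator, fell by 0.49 and RPS6KA4, a kinase of CREB and histone H3, by 0.55 on the log2 scale. CAMK2D rose by a log2 difference of 0.34 and the JNK gene MAPK8 by 0.27. After trend removal neither RPS6KA4 (-0.25, limma adjusted p = 0.0851) nor MAPK8 (0.11, limma adjusted p = 0.129) passed. The authors' deposited table called 10 of the 37, where 18% of all genes passed. Of 10 corepressors and turnover factors, 2 rose and 0 fell (median -0.0043). NAB1, a corepressor of EGR proteins, rose by a log2 difference of 0.47 and FHL2, a cofactor of AP-1, by 0.77, and without control replicate 2 none of the 10 passed.

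For 3 of the 9 genes, the profile over the 6 libraries was set against those of 11447 other genes, as the root mean square (RMS) difference of centred log2 values. The nearest to FOS was HOOK2 (RMS 0.0582), followed by TUT1 and SNX32. The nearest to EGR1 were SH3GLB2 (RMS 0.0230), FN3K and SPATA20, and the nearest to ATF3 were ZMAT2 (RMS 0.0234), PNRC1 and MACROH2A2. These distances describe 6 libraries and carry no test.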

How the data were processed

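PolyA RNA of 6 libraries was analysed, 3 labelled PEDS1 knockout and 3 control, grouped by their titles, with 1 batch label for all. Per the labels' protocols, stranded libraries were made from 500 ng of RNA and sequenced from 1 end for 100 bp. Per the submitters' processing notes, STAR 2.7.10b and DESeq2 were used on GRCh38. No counting tool or annotation is named there. Values deposited by the authors are a signal, the reads of a gene over the size factor of its library, and 100% of values were whole multiples of a step (tolerance 1e-06), so reads were recovered. Per the file headers, the deposited table also holds log2 fold changes, a Wald score and p-values with adjusted values. A sheet of 344 genes repeats the same values and was not used.

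The test was limma 3.58.1 in R 4.3.3 on log2(normalized count + 1), with a variance trend and Benjamini-Hochberg adjustment over all 16625 genes, a scale that understates changes of low genes. Single values were compared with exact permutation tests (scipy 1.17.1). Lengths and GC content came from GENCODE 29 coding transcripts (96.5% of genes), trends were removed per library with natural splines of 4 degrees of freedom, and promoters came from RefSeq tables (GRCh38.p14). The method was tested on simulated data. Alternatives were other scalings (TMM, quantile), pseudocounts (0.5, 5) and filters on the mean count (10, 100), the authors' table, edgeR 4.0.16 and DESeq2 1.42.0 on recovered reads, GC and length trend removal, a replicate block, each library left out and, for ratios and shares, lengths of merged exons. Named from each list were up to 4 genes with the smallest adjusted p under 0.05, and other genes of the lists were chosen after their values were seen. A result for 1 listed gene is not reported here. The genes and lists were chosen with earlier results of these data known.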

Additional observations from a re-analysis of the deposited data

How the results depend on the processing

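NR4A3 kept its direction and its call in all 17 alternatives, and ATF3 in 16 of them. The 17 are not separate checks: DESeq2 on recovered reads nearly repeats the authors' deposited table, and each called 2706 genes. The number of the 9 genes called, 4 in the reported fit, was 2 with GC and length trends removed and 1 to 4 when 1 library was left out. The number called lower, 3, was 1 with the trends removed and 0 to 3 with 1 library left out. Without control replicate 1 the called genes were NR4A3 and ATF3, and without control replicate 2 only NR4A3 was called. Signs turned with the trends removed for JUND (0.059) and JUNB (0.19), and without control replicate 1 for JUNB (0.021), whose leave-one-out range was -0.31 to 0.021. The cause was not tested. Over all genes, 2269 passed, and 582 to 3577 did with 1 library left out.

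Counts on the lists moved as follows. With 1 library left out, the further early factors ranged from 1 to 4, the effectors from 2 to 10, the later genes from 3 to 7, the upstream genes from 0 to 7 and the corepressors from 0 to 2. The upstream count of 5 was 10 in the authors' deposited table and with DESeq2 on recovered reads, and 8 with GC and length trends removed. The later gene count of 4 was 6 with the trends removed at the limit of 1.5 times. The corepressor count of 2 was 1 at a mean count of 100 or more and with the replicate block. Replicate numbers did not pair the libraries: the correlations of same-numbered deviations from group means were -0.30, 0.10 and -0.05. With the replicate block 1560 genes passed, 3 of the 9 among them, and the call of NR4A1 was lost (limma adjusted p = 0.0651). With lengths of merged exons, added after seeing the data, each ratio and share between the genes kept the sign of its difference. For the ratio of a gene to another gene this was fixed in advance, because a length scales all libraries alike. FOSL2 has no value at a mean count of 100 or more. Depth limits FOS, JUNB, NR4A1 and FOSL2, whose lowest libraries held 67, 60, 66 and 28 reads.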
